A study of Homo sapiens with 12 samples.

Results

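The p38 mitogen-activated protein (MAP) kinases and their closest partners were followed in 3 human multiple myeloma cell lines treated with JQ1. The set holds 8 of the 60666 genes in the deposited count table. It comprises the 4 p38 kinases MAPK11, MAPK12, MAPK13 and MAPK14, the activating kinases MAP2K3 and MAP2K6, and the downstream kinases MAPKAPK2 and MAPKAPK3. They were matched by gene symbol, and all 8 passed the low-count filter. MAPK13 was selected on its JQ1 minus DMSO fold changes in these same libraries, as it was lower in all 3 lines, and the set was assembled around it. Its levels and its JQ1 response are therefore given as a description, without a test, and the other 7 genes were tested.

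RNA was sequenced from KMS-11, KMS-12 and RPMI8226, each labelled as genotype WT. JQ1 is an inhibitor of BET bromodomain proteins, which bind acetylated histones. It was dissolved in dimethyl sulfoxide (DMSO) and applied at 1 µM for 72 h, and the controls received an equal volume of DMSO. Each line gave 2 JQ1 and 2 DMSO libraries, 12 in all. The labels give no origin in separate cultures, so p-values reflect only how far these libraries differ, and that may be technical.

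p38 kinases are switched on by cytokines and by stresses such as osmotic shock and ultraviolet light. The dual-specificity kinases MKK3 (from MAP2K3) and MKK6 (from MAP2K6) phosphorylate them on a threonine and a tyrosine of the activation loop. Active p38 phosphorylates transcription factors and the kinases MK2 (from MAPKAPK2) and MK3 (from MAPKAPK3), which control the stability and translation of cytokine mRNAs. MAPK14 encodes p38α, a widely expressed isoform, and MAPK11 encodes p38β. MAPK12 encodes p38γ and MAPK13 p38δ, isoforms of more restricted expression. In multiple myeloma, p38 is known for roles in growth within the bone marrow and in bone disease.

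The 4 kinase genes lie in 2 pairs, read in the same direction within each pair (positions from GENCODE 29, GRCh38). MAPK14 (ENSG00000112062) occupies chr6:36027677-36111236 and MAPK13 (ENSG00000156711) chr6:36127809-36144524, both on the plus strand with 16572 bases between them. MAPK12 (ENSG00000188130) occupies chr22:50245450-50261825 and MAPK11 (ENSG00000185386) chr22:50263713-50270767, both on the minus strand with 1887 bases between them. The start regions of all 4 are shown because of the JQ1 responses of the 2 pairs. MAPK13 and MAPK14, neighbours on chromosome 6, had responses of different size, and the sign of MAPK14 depended on the scaling, as given below. MAPK12 and MAPK11 on chromosome 22 were both lower with JQ1. Each sequence runs 5′ to 3′ on the gene's strand, from 250 bases before to 50 bases after the RefSeq start (GRCh38.p14). Capitals mark matches on either strand to the E-box CACGTG, the GC box GGGCGG, the ETS core CCGGAA, the AP-1 motif TGACTCA, the TATA box TATAAA or the CRE TGACGTCA.
MAPK13, chr6:36130263-36130562, plus strand: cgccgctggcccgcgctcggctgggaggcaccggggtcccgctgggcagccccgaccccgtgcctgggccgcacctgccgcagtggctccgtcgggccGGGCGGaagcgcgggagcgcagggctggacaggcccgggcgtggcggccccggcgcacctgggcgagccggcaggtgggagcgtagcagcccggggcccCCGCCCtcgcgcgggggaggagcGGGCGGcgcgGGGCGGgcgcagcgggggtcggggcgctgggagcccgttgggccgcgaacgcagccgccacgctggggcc
MAPK14, chr6:36027558-36027857, plus strand: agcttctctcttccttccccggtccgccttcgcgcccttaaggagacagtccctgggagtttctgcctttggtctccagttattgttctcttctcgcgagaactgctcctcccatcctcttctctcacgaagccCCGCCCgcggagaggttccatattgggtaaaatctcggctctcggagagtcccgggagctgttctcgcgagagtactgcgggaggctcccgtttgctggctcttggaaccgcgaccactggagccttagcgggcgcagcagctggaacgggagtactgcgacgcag
MAPK12, chr22:50261634-50261933, minus strand: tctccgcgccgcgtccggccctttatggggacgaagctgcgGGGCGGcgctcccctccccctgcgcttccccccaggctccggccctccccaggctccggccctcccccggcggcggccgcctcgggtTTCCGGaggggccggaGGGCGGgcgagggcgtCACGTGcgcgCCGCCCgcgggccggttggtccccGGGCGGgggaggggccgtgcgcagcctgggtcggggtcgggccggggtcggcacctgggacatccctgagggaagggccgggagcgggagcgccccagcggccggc
MAPK11, chr22:50270331-50270630, minus strand: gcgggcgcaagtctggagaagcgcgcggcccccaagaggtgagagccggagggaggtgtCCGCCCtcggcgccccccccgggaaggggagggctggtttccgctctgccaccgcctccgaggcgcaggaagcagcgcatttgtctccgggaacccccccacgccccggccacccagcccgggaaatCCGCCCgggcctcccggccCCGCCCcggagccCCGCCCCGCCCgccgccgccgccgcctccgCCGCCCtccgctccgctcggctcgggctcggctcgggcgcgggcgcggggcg

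The MAPK13 window held 84.0% G or C, more than 99.5% of the 35116 promoters in the table, and 46 CpG sites. The MAPK14 window held 60.3%, close to the median promoter at 58.7%, and 24 CpG sites against a median of 14. MAPK12 (81.7%, 42 CpG) and MAPK11 (80.7%, 44 CpG) resembled MAPK13 in this respect. GC boxes, the sites of SP1-type zinc finger factors, numbered 4 in MAPK13, 1 in MAPK14, 4 in MAPK12 and 6 in MAPK11, and 45.0% of all promoters held at least 1. MAPK12 also held 1 E-box, the site of MYC and related factors (7.26% of all promoters), and 1 ETS core (17.2%). The AP-1 (4.95%), TATA (11.5%) and CRE (1.85%) letters occurred in none of the 4 windows. The only overlapping matches were 1 pair of GC boxes in MAPK11. These matches describe the letters and were not tested as sites. The RefSeq start of MAPK13 lies inside the GENCODE gene, so the window is that of 1 annotated start. Of the 8 genes, 7 had an entry.

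Library totals ran from 15424512 to 27366499 counts. The share of counts taken by MALAT1, an abundant nuclear RNA, differed between the groups. With DMSO it was 3.61% to 4.58% in the KMS-11 and RPMI8226 libraries and 8.06% to 9.01% in those of KMS-12. JQ1 libraries held 25.7% to 25.8% in KMS-12, 14.5% to 16.5% in KMS-11 and 6.31% to 6.56% in RPMI8226. Levels are CPM (reads scaled to a common library total) on library sizes scaled by the trimmed mean of M-values (TMM). Scaling by library size alone shifts the median log2 fold change of all genes by -0.76 (KMS-12), -0.25 (KMS-11), -0.03 (RPMI8226) and -0.33 in the average of the lines. Directions of the 8 genes that depend on this are stated beside the gene. All 8 plasma cell markers were read, with summed levels between 1580 and 4030 CPM, though CD38 had only 0.60 and 0.756 CPM in KMS-11 (DMSO first). In the average of the lines 3 of them fell (TNFRSF17, -4.05; SLAMF7, -4.385; MZB1, -1.93 on the log2 scale), PRDM1 rose by 1.18 and 4 were not called. MZB1 (-0.20) and PRDM1 (0.32) were not called in RPMI8226. Of the 4, IRF4 and CD38 rose in KMS-12 (0.75 and 1.27) and fell in RPMI8226 (-0.72 and -1.61). XBP1 was called in KMS-12 alone (0.77) and SDC1 in no line. Markers of T cells, monocytes, B cells, epithelium, fibroblasts and endothelium summed to 22.1 to 39.8 CPM with DMSO and 5.84 to 10.8 CPM with JQ1, largely from EPCAM, and 4 of the 6 that could be tested fell on average. CD3D had no read in KMS-11 or KMS-12. The part of these markers in the results below was not tested. In bulk RNA, fewer cells of a kind and less RNA per cell cannot be told apart, and all levels are relative.

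At the top of the cascade, the 2 activating kinases differed from each other and between lines. MAP2K6 rose with JQ1 in KMS-11 and RPMI8226 and fell in KMS-12. In KMS-11 it had 9.40 and 9.17 CPM with DMSO and 19.5 and 20.5 CPM with JQ1. KMS-12 went the other way, from 13.4 and 14.3 CPM to 9.24 and 7.10 CPM. In RPMI8226, where MAP2K6 was lowest without drug, the level went from 2.86 and 3.10 CPM to 13.2 and 12.6 CPM. The JQ1 and DMSO libraries did not overlap in any line. With 2 libraries per group, genes without a change can also be apart, and the share of all genes that were apart was not determined. Here and for the genes below, lack of overlap therefore only describes the libraries. In KMS-11 the log2 fold change was 1.10 ± 0.17 (SE), with an adjusted p of 4.84e-05 in edgeR's quasi-likelihood test with Benjamini-Hochberg adjustment over the 23493 genes tested. The value for KMS-12 was -0.76 ± 0.17 (adjusted p = 0.00136). For RPMI8226 it was 2.11 ± 0.19 (adjusted p = 2.45e-07), a 4.31-fold rise. The responses differed between the lines (adjusted p = 6.21e-07), and RPMI8226 exceeded KMS-12 by 2.87 ± 0.26 on the log2 scale (adjusted p = 3.59e-07). RPMI8226 also exceeded KMS-11 by 1.00 ± 0.25 (adjusted p = 0.0143), a call lost without the first RPMI8226 DMSO library (adjusted p = 0.0685). A gene of unsettled class, ENSG00000278972, overlaps MAP2K6 on the same strand and had 296 reads in the 12 libraries against 2945 for MAP2K6.

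MAP2K3 was higher with JQ1 in KMS-11 and KMS-12 and lower in RPMI8226, by smaller amounts. In KMS-11 the level was 47.4 and 38.2 CPM with DMSO and 65.0 and 57.5 CPM with JQ1. In KMS-12 it was 20.3 and 22.4 CPM with DMSO and 30.8 and 37.0 CPM with JQ1. In RPMI8226 it was 52.7 and 46.5 CPM with DMSO and 40.5 and 36.4 CPM with JQ1. No line's groups overlapped, but in KMS-11 and RPMI8226 the gap between them was about as wide as the distance between replicates. In the order of these sentences, the log2 fold changes were 0.52 ± 0.13 (adjusted p = 0.00426), 0.67 ± 0.14 (adjusted p = 0.000534) and -0.37 ± 0.13 (adjusted p = 0.0409), and the lines differed in response (adjusted p = 0.000684). With library size alone the KMS-12 value was -0.10 and the average of the lines turned from 0.27 to -0.08, while KMS-11 kept its sign at 0.25 with an adjusted p of 0.159. Relative to the median of all genes, the KMS-12 value was 0.72 under either scaling. The RPMI8226 call was also lost with limma-voom (adjusted p = 0.0615), with library size without MALAT1 (0.0549), without any 1 of its own 4 libraries (adjusted p between 0.0547 and 0.263) or without either KMS-12 DMSO library (0.0516 and 0.0508), and the KMS-11 call without the first KMS-11 JQ1 library (0.0507).

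**Figure D1:**
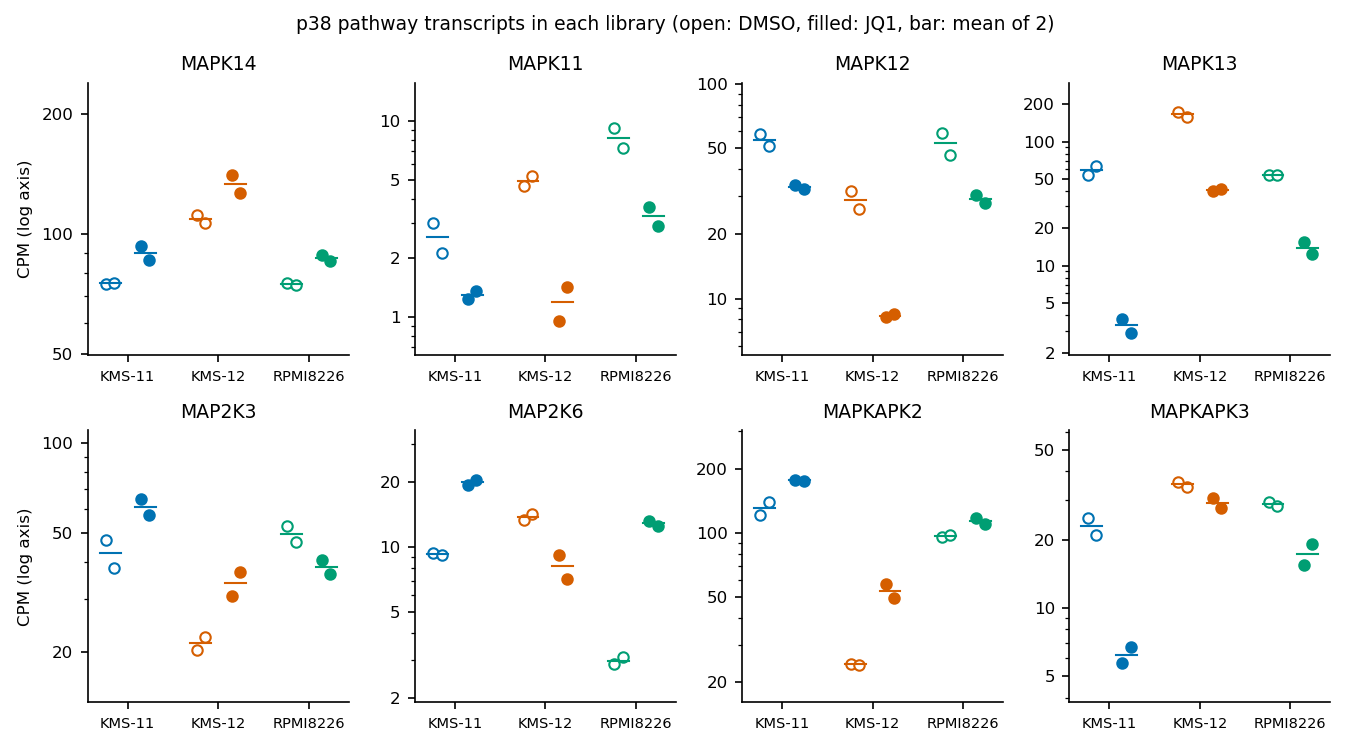
CPM of the 8 genes in each of the 12 libraries, on log axes that differ between panels, with open points for DMSO, filled points for JQ1 and a bar at the mean of 2 libraries. MAPK13 is lowest in KMS-11 with JQ1, at 3.76 and 2.86 CPM, and MAP2K6 falls in KMS-12 where it rises in the other lines.

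MAPK13 was lower with JQ1 than with DMSO in each line. In KMS-11 it had 54.0 and 63.6 CPM with DMSO and 3.76 and 2.86 CPM with JQ1, which rest on 79 and 51 reads. KMS-12 expressed it most, at 174 and 158 CPM with DMSO and 39.9 and 41.4 CPM with JQ1. In RPMI8226 it had 53.9 and 54.1 CPM with DMSO and 15.6 and 12.4 CPM with JQ1. The lowest DMSO library therefore lay above every JQ1 library, so the 6 libraries of each treatment did not overlap even across lines. The log2 fold change was -4.14 ± 0.15 (SE) in KMS-11, a 17.6-fold difference. It was -2.03 ± 0.12 in KMS-12 and -1.94 ± 0.13 in RPMI8226, differences of 4.08-fold and 3.84-fold. Over all processing alternatives the average of the lines lay between -3.06 and -2.64. The widest range of a single line was that of KMS-12, from -2.80 with library size alone to -1.96. The level in KMS-12 with JQ1 was 40.7 ± 1.05 CPM (SD, n = 2), against 58.8 ± 6.78 and 54.0 ± 0.18 CPM in the untreated KMS-11 and RPMI8226 libraries.

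MAPK14, the neighbour of MAPK13 on chromosome 6, was slightly higher with JQ1 in every line under TMM scaling, a direction that reversed in KMS-11, KMS-12 and the average with library size alone. In KMS-11 it had 75.2 and 75.3 CPM with DMSO and 93.7 and 86.3 CPM with JQ1. In KMS-12 it had 112 and 107 CPM with DMSO and 141 and 127 CPM with JQ1. In RPMI8226 it had 75.3 and 74.6 CPM with DMSO and 88.5 and 85.6 CPM with JQ1. The groups did not overlap within a line, although they lay close together. From KMS-11 to RPMI8226 in that order, log2 fold changes were 0.26 ± 0.09 (adjusted p = 0.0326), 0.29 ± 0.09 (adjusted p = 0.0140) and 0.22 ± 0.09 (adjusted p = 0.0821), and their average 0.25 ± 0.05 (adjusted p = 0.000530). They became -0.002 in KMS-11, -0.48 (adjusted p = 0.000156) in KMS-12 and -0.10 in the average when library size alone was used. Relative to the median of all genes, the average was 0.36 with TMM and 0.34 with library size alone. The KMS-11 call was also lost with no low-count filter (adjusted p = 0.075), with library size without MALAT1 (0.12), without the first DMSO (0.0678) or first JQ1 library (0.222) of that line, without either KMS-12 DMSO library (0.0501 and 0.0504) and, at the threshold itself, without the second RPMI8226 DMSO library. The KMS-12 call was lost without its first JQ1 (0.178) or its second DMSO library (0.111). A difference in response between the lines was not detected (adjusted p = 0.932), though it was called with library size alone (0.000867) and with library size without MALAT1 (0.0304).

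MAPK12, which encodes the isoform abundant in skeletal muscle, fell in all 3 lines. In KMS-11 it had 58.5 and 51.2 CPM with DMSO and 33.8 and 32.2 CPM with JQ1. In KMS-12 it had 31.6 and 26.1 CPM with DMSO and 8.18 and 8.47 CPM with JQ1. In RPMI8226 it had 59.3 and 46.7 CPM with DMSO and 30.2 and 28.0 CPM with JQ1. The groups were apart in each line, and KMS-12 had both the lowest untreated and the lowest treated level. Taken in the same order, the log2 fold changes were -0.73 ± 0.13 (adjusted p = 0.000279), -1.79 ± 0.15 (adjusted p = 2.52e-08) and -0.86 ± 0.14 (adjusted p = 9.70e-05). The fall in KMS-12 exceeded that in KMS-11 by 1.06 ± 0.20 on the log2 scale (adjusted p = 0.000811) and that in RPMI8226 by 0.93 ± 0.20 (adjusted p = 0.00221). HDAC10, a deacetylase gene, overlaps MAPK12 on the same strand. It was read at 10.5 CPM in untreated KMS-11 and 7.27 CPM in untreated KMS-12 as means and changed by -0.30 ± 0.11 on average (adjusted p = 0.0313), a call that 7 of the 12 omissions of 1 library ended (adjusted p 0.0514 to 0.125). Whether reads of the shared stretch were assigned to either gene is not given in the sources used here.

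MAPK11 was the scarcest p38 transcript by count and also fell in all 3 lines. In KMS-11 it had 3.02 and 2.11 CPM with DMSO and 1.24 and 1.35 CPM with JQ1, resting on 24 to 78 reads per library. In KMS-12 it had 4.63 and 5.24 CPM with DMSO and 0.959 and 1.42 CPM with JQ1. In RPMI8226 it had 9.13 and 7.24 CPM with DMSO and 3.61 and 2.91 CPM with JQ1. The groups did not overlap within a line. JQ1 minus DMSO on the log2 scale was -0.99 ± 0.31 (adjusted p = 0.0168), -2.05 ± 0.30 (adjusted p = 2.08e-05) and -1.32 ± 0.26 (adjusted p = 0.000877). At this depth the KMS-11 call was lost without its first DMSO (-0.71, adjusted p = 0.152), first JQ1 (-0.93, 0.0961) or second JQ1 library (-1.05, 0.0559). The test of a difference between the lines gave an adjusted p of 0.159. That difference was called with library size alone (0.00846) and with library size without MALAT1 (0.0258).

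**Figure D2:**
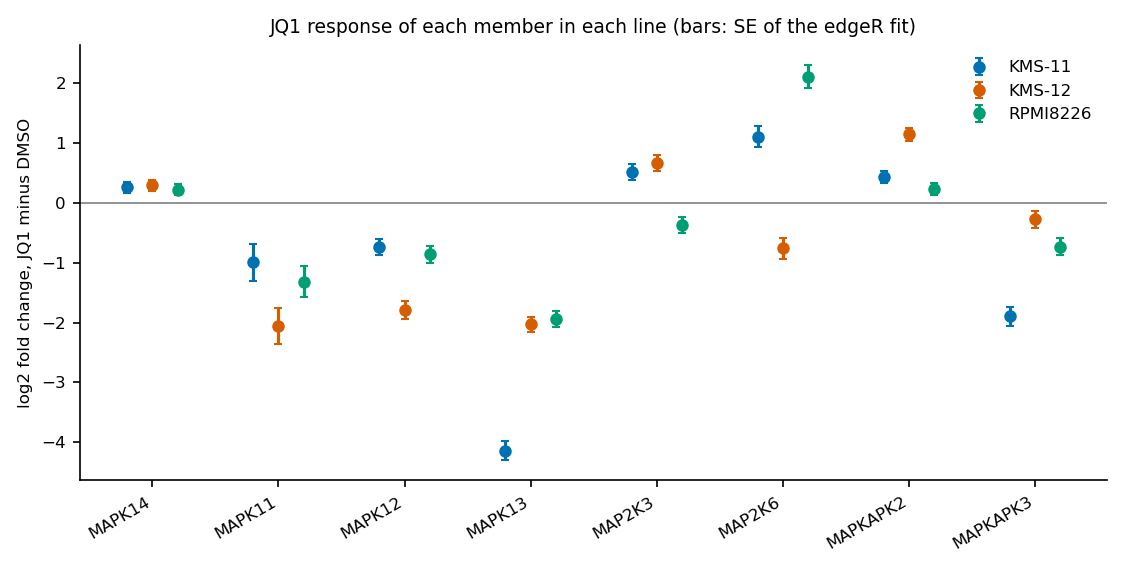
Log2 fold change of JQ1 over DMSO for the 8 genes in each line, with the standard error of the edgeR fit as bars. MAPK11, MAPK12 and MAPK13 are below 0 in all lines, while MAP2K6 is at 1.10 in KMS-11, at 2.11 in RPMI8226 and at -0.76 in KMS-12.

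Below p38, the 2 MAPKAP kinases moved in opposite directions in the average of the lines, by 0.60 ± 0.06 (MAPKAPK2) and -0.97 ± 0.09 (MAPKAPK3) on the log2 scale. Among single lines, both were called only in KMS-11. MAPKAPK2, whose product MK2 acts on tristetraprolin and small heat shock proteins, rose in KMS-11 and KMS-12. KMS-12 had the lowest untreated level, 24.5 and 24.2 CPM, and 57.8 and 49.9 CPM with JQ1. KMS-11 had 122 and 140.0 CPM with DMSO and 178 and 176 CPM with JQ1. RPMI8226 had 96.0 and 97.5 CPM with DMSO and 118 and 110.0 CPM with JQ1. The groups did not overlap, and the ratio between them was highest in KMS-12. Log2 fold changes were 0.43 ± 0.10 (adjusted p = 0.00173) in KMS-11 and 1.14 ± 0.10 (adjusted p = 8.31e-08) in KMS-12. RPMI8226 gave 0.24 ± 0.10 (adjusted p = 0.0771), called without the first KMS-11 DMSO library (0.0371). The KMS-12 response exceeded that of KMS-11 by 0.71 ± 0.14 (adjusted p = 0.00145) and that of RPMI8226 by 0.91 ± 0.14 (adjusted p = 0.000142). When library size alone was used, KMS-12 minus KMS-11 was 0.20 (adjusted p = 0.294) and RPMI8226 minus KMS-12 was -0.17 (0.344), the overall test of a difference gave 0.411, and the KMS-11 rise was 0.18 (0.134).

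MAPKAPK3, whose product MK3 is closely related to MK2, fell in KMS-11 and RPMI8226. In KMS-11 it had 25.0 and 20.9 CPM with DMSO and 5.71 and 6.67 CPM with JQ1. RPMI8226 had 29.4 and 28.1 CPM with DMSO and 15.4 and 19.2 CPM with JQ1. KMS-12 had 35.8 and 34.3 CPM with DMSO and 30.5 and 27.5 CPM with JQ1. The KMS-11 groups were several times apart, and those of KMS-12 were close without overlapping. KMS-11 had a log2 fold change of -1.89 ± 0.16 (adjusted p = 5.32e-08), RPMI8226 of -0.73 ± 0.15 (adjusted p = 0.000870) and KMS-12 of -0.27 ± 0.14 (adjusted p = 0.127). The KMS-12 value passed the threshold with library size alone (-1.04), with library size without MALAT1 (-0.74) and among genes of at least 10 CPM (-0.36). The response of KMS-11 was lower than that of KMS-12 by 1.62 ± 0.21 (adjusted p = 2.64e-05) and lower than that of RPMI8226 by 1.16 ± 0.21 (adjusted p = 0.00147). CISH, a cytokine signalling inhibitor gene, overlaps MAPKAPK3 on the opposite strand. CISH was read at 22.4 ± 0.44 CPM with DMSO and 6.52 ± 0.07 CPM with JQ1 (SD, n = 2) in RPMI8226, and at 0.385 to 2.83 CPM as group means in the KMS lines. The libraries were stranded, but whether counting used the strand is not given in the sources used here, so the RPMI8226 value of MAPKAPK3 is uncertain.

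Counted over the 7 tested genes, 4 were called higher and 3 lower in KMS-11, where 17.3% and 21.2% of all genes tested were called. KMS-12 gave 3 higher and 3 lower, beside 20.2% and 25.7% of all genes. RPMI8226 gave 1 higher and 4 lower, beside 13.6% and 18.6%. In the average of the lines the counts were 4 higher and 3 lower, beside 22.3% and 26.7%. Responses differed between the lines for 5 of the 7 genes, beside 30.1% of all genes. By pairs of lines, 4 responses differed between KMS-12 and KMS-11 (20.0% of all genes), 3 between RPMI8226 and KMS-11 (11.4%) and 4 between RPMI8226 and KMS-12 (23.4%). The single gene called higher in RPMI8226 is a share close to that of all genes, and the other counts are above it. Calls were a larger share among the 10210 genes averaging at least 10 CPM, which include the 7 genes except MAPK11. Of these 10210 genes, 5979 were called in KMS-11, 6656 in KMS-12, 4874 in RPMI8226, 7206 on average and 5331 for a difference in response. Over all 23493 genes these numbers were 9040, 10804, 7574, 11509 and 7070. The counts were not tested against genes of like level. With library size alone, 1 gene was called higher in KMS-11, 1 for KMS-12 and 2 for the average, where 2116 of all genes were then called higher and 10351 lower in place of 5244 and 6265. Without the first KMS-11 JQ1 library 2 genes were called higher in KMS-11, and without the first KMS-11 DMSO library 2 in RPMI8226.

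The makeup of the p38 transcript pool differed between JQ1 and DMSO libraries. Shares were taken of the summed CPM per kilobase of longest transcript within each library, a measure that scaling cannot change. MAPK14 made up 47.4% and 47.4% of the pool in the KMS-11 DMSO libraries and 76.9% and 76.4% with JQ1. In KMS-12 its share was 42.6% and 43.7% with DMSO and 80.0% and 77.4% with JQ1. In RPMI8226 it was 44.3% and 47.4% with DMSO and 69.9% and 72.0% with JQ1. Without drug MAPK14 thus stood at a similar share in the 3 lines, and with JQ1 every library was above every DMSO library.

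The share of MAPK13 was 25.8% ± 2.97 (SD, n = 2) with DMSO and 1.96% ± 0.27 with JQ1 in KMS-11. KMS-12 had 45.5% ± 0.64 and 16.7% ± 1.23, and RPMI8226 had 23.0% ± 1.33 and 7.93% ± 0.91. MAPK12 held 23.9% and 22.3% of the pool in untreated KMS-11 and RPMI8226 but 7.83% in KMS-12, and 19.4%, 16.4% and 3.39% with JQ1. By longest transcript the share of MAPK11 did not exceed 9.54%, its value in 1 RPMI8226 DMSO library. The summed level of the pool was 36.8 ± 0.02 CPM per kb with DMSO and 27.2 ± 1.46 with JQ1 in KMS-11. The same sums were 58.9 ± 3.18 and 39.4 ± 1.90 for KMS-12 and 37.9 ± 2.06 and 28.4 ± 1.28 for RPMI8226. Unlike the shares, these sums depend on the TMM scaling. Library size alone shifts the median log2 fold change of all genes by -0.76 in KMS-12, -0.25 in KMS-11 and -0.03 in RPMI8226. With all annotated exons as the length, the share of MAPK14 was 42.3% and 74.7% for KMS-11, 36.4% and 73.6% for KMS-12, and 40.4% and 67.1% for RPMI8226 (DMSO first). By that length MAPK13 had 31.5% and 2.61%, 52.5% and 21.3%, and 27.7% and 10.2% in the same order. MAPK11 then had 12.1% and 10.3% in the RPMI8226 DMSO libraries. Since MAPK13 was chosen for its fall, these shares are a description.

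**Figure D3:**
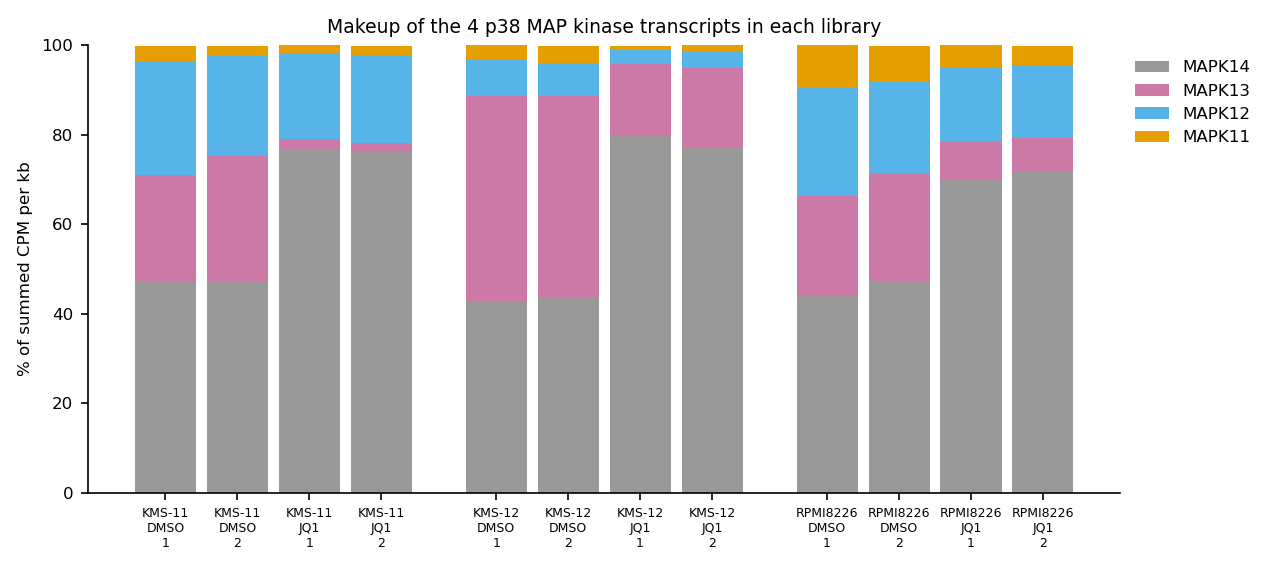
Share of each p38 kinase transcript in the summed CPM per kb of longest transcript, as stacked bars for the 12 libraries. MAPK14 fills 42.6% to 47.4% of the bar with DMSO and 69.9% to 80.0% with JQ1, and MAPK13 is thinnest in KMS-11 with JQ1.

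Before treatment the lines also differed in the cascade. The level in DMSO differed between lines for all 7 tested genes, beside 80.2% of all genes. The pairwise counts were 7 between KMS-12 and KMS-11 (62.9% of all genes), 3 between RPMI8226 and KMS-11 (58.2%) and 6 between RPMI8226 and KMS-12 (62.5%). MAPK12, MAPK14, MAP2K3 and MAPKAPK3 were not called between RPMI8226 and KMS-11, a count of differences below the share of all genes. MAPKAPK2 was lower in KMS-12 than in KMS-11 by 2.43 ± 0.11 on the log2 scale (adjusted p = 1.00e-12), a 5.38-fold difference. MAP2K6 was lower in RPMI8226 than in KMS-12 by 2.21 ± 0.19 (adjusted p = 9.32e-09), a 4.63-fold difference. MAPK11 was higher in RPMI8226 than in KMS-11 by 1.67 ± 0.26 (adjusted p = 3.02e-05). The counts of 7 and 6 each include a less stable MAPK11 call. Its KMS-12 minus KMS-11 call (0.94) was lost without the second KMS-11 DMSO library (0.71). Its RPMI8226 minus KMS-12 call (0.73) was lost with library size alone (adjusted p = 0.0583) and with library size without MALAT1 (0.0927). That call was also lost without the first KMS-12 DMSO (0.64 on the log2 scale) or first RPMI8226 DMSO library (0.56). MAP2K3 was lower in KMS-12 than in RPMI8226 by 1.22 ± 0.13 (adjusted p = 3.24e-07), and MAPK12 by 0.88 ± 0.13 (adjusted p = 1.64e-05). MAPK13 stood at 166 ± 11.3 CPM (SD, n = 2) in KMS-12, the highest of the 3 lines.

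Per kilobase of longest transcript, MAPKAPK2 was the most abundant of the 8 transcripts in untreated KMS-11, at 44.3 ± 4.39 CPM per kb (SD, n = 2), and in RPMI8226, at 32.7 ± 0.36. MAP2K3 followed in both lines, at 17.8 ± 2.72 and 20.7 ± 1.82, and in KMS-11 it was not apart from MAPK14 at 17.4 ± 0.01. The next places in KMS-11 went to MAPK13 (9.49 ± 1.09), MAPK12 (8.78 ± 0.82) and MAPKAPK3 (7.68 ± 0.99), where neighbours were not apart beyond their spread. By exon length, MAPK13 (8.17 ± 0.94) was above MAPKAPK3 (5.86 ± 0.75). In RPMI8226, MAPK13 (8.71 ± 0.03) and MAPK12 (8.49 ± 1.43) were likewise not apart. In KMS-12 the order was led by MAPK13 at 26.8 ± 1.83 and MAPK14 at 25.4 ± 0.91, which were not apart, while by exon length MAPK13 (23.1 ± 1.57) was above MAPK14 (16.0 ± 0.57). MAPKAPK2 stood lower there, at 8.23 ± 0.07, next to MAP2K3 at 8.89 ± 0.64. MAPK11 and MAP2K6 were the lowest in each line without drug. With JQ1, MAPK13 in KMS-11 came down to 0.534 ± 0.10 CPM per kb, level with MAPK11 at 0.531 ± 0.03.

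The chromosome neighbours of the p38 genes gave smaller changes than MAPK13, MAPK12 and MAPK11. On either side of the chromosome 6 pair, SRPK1, a kinase of splicing factors, changed by 0.27 ± 0.05 on average under TMM scaling (adjusted p = 0.000283) and by -0.08 with library size alone. BRPF3, a scaffold of histone acetyltransferases, changed by -0.31 ± 0.11 in KMS-11 (adjusted p = 0.0314) and by 0.68 ± 0.10 in KMS-12 (adjusted p = 3.34e-05), the latter -0.09 with library size alone. The BRPF3 call in KMS-11 was lost without the first KMS-11 JQ1 (adjusted p = 0.306), the second KMS-11 DMSO (0.261) or either KMS-12 JQ1 library (0.0521). SLC26A8 and PNPLA1 had 12 and 44 reads in all and could not be tested. MAPK13 thus fell by 4.14 on the log2 scale in KMS-11 between MAPK14 at 0.26 and BRPF3 at -0.31.

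Around the chromosome 22 pair, TUBGCP6, a gamma-tubulin complex gene, rose by 0.37 ± 0.06 on average (adjusted p = 2.26e-05; 0.02 with library size alone). PLXNB2, a semaphorin receptor gene, rose by 0.27 ± 0.07 (adjusted p = 0.00272), which became -0.09 with library size alone. DENND6B gave -0.25 ± 0.09 (adjusted p = 0.0248), a call lost in 6 of the 12 omissions of 1 library (adjusted p 0.0595 to 0.115). MAPK12 and MAPK11, at -1.13 ± 0.08 (adjusted p = 2.05e-09) and -1.45 ± 0.17 (adjusted p = 9.77e-07), lay between genes whose average changes ran from -0.30 to 0.37. Both were lowest relative to DMSO in KMS-12, as were the values of HDAC10, although for MAPK11 the difference between lines was not called.

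**Figure D4:**
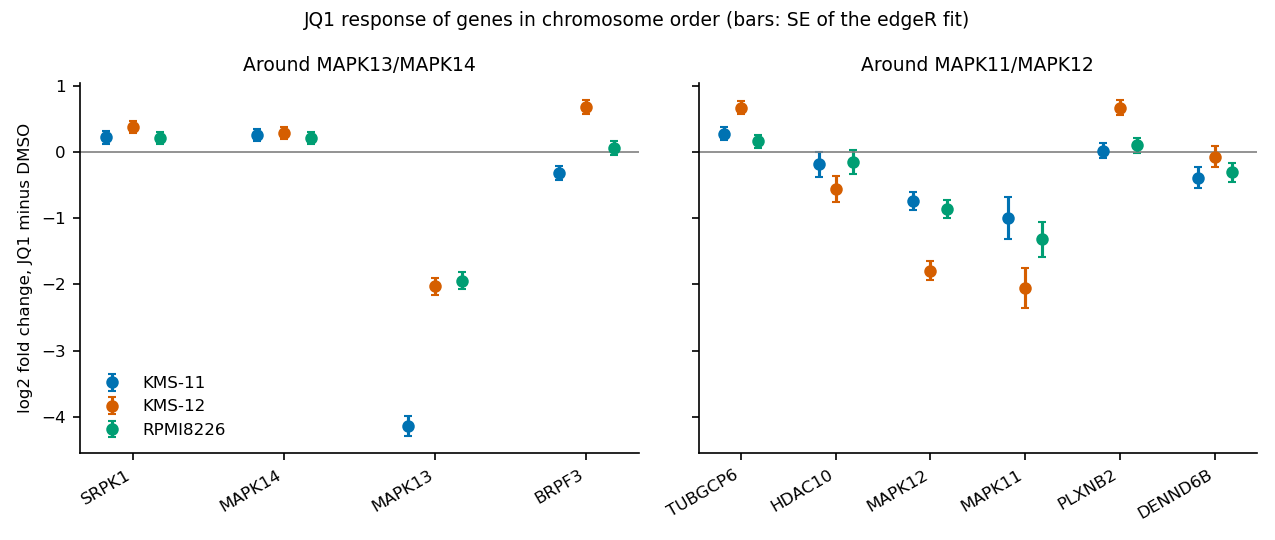
Log2 fold change of JQ1 over DMSO in each line for genes in chromosome order around MAPK14 and MAPK13 (left) and around MAPK12 and MAPK11 (right), with standard errors as bars. MAPK13 stands between -4.14 and -1.94 while its tested neighbours stay between -0.31 and 0.68.

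Across the 12 libraries, the genes whose log2 CPM followed MAPK13 most closely were SERPINH1, which encodes a collagen chaperone (Pearson r = 0.993, Spearman rho = 0.972), MYL6B, a myosin light chain gene (0.991 and 0.972), ZNF395, a zinc finger gene (0.984 and 0.944), SEMA3A, a secreted semaphorin gene (0.979 and 0.937) and FBXL19, an F-box gene (0.977 and 0.916). They were ranked among 16948 genes of at least 1 CPM. The 12 points share their line, treatment and library depth, so these values describe likeness of pattern in these libraries. SERPINH1, for example, had mean levels of 47.2 CPM with DMSO and 5.77 CPM with JQ1 in KMS-11, against 83.3 and 39.2 CPM for KMS-12 and 43.6 and 14.4 CPM for RPMI8226. Within the p38 set, MAPKAPK3 was closest to MAPK13, at rank 47 with r = 0.931 (rho = 0.776), though its RPMI8226 level is uncertain as said above. MAPK11 followed with 0.543 (rho 0.601), MAPK14 with 0.164 (-0.098), MAPK12 with 0.021 (0.161) and MAP2K6 with -0.441 (-0.322). The sign for MAPK14 thus differed between the 2 measures. MAP2K3 and MAPKAPK2 ran opposite to MAPK13, with -0.734 (rho -0.552) and -0.76 (-0.594). MAPK12 thus fell in the same direction as MAPK13 in each line while its pattern over the libraries differed, being lowest in KMS-12, where MAPK13 was highest.

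A wider list of 64 genes around p38, all tested, placed these changes in the pathway. The background for the counts below is that 22.3% of all genes were called higher and 26.7% lower in the average of the lines, with a median of -0.10. Of 22 upstream kinases and adaptors, 12 rose and 4 fell in that average, with a median of 0.20. This balance depended on the scaling, since 4 rose and 8 fell with library size alone, and 5 and 5 with library size without MALAT1. GADD45B, which activates the p38 pathway through MAP3K4, rose by 1.75 ± 0.08 on the log2 scale (adjusted p = 5.40e-12). It was called in each line, at 1.99, 2.65 and 0.59, the last lost without the first RPMI8226 JQ1 library (adjusted p = 0.0532). The stress kinases TAOK2 (0.80 ± 0.05) and TAOK3 (0.71 ± 0.06) and the scaffold gene SPAG9 (0.83 ± 0.06) also rose on average, though TAOK3 was not called in RPMI8226 (0.24, adjusted p = 0.11). The 4 that fell, named after their values were seen, were the MAP kinase kinase kinases MAP3K6 (-1.78), MAP3K10 (-0.89), MAP3K4 (-0.21) and TAOK1 (-0.17). MAP3K6 and MAP3K10 were not called in KMS-11 (adjusted p = 0.0763 and 0.0907). MAP3K4 (-0.545) and TAOK1 (-0.295) were called in KMS-11 alone. The average call of TAOK1 was lost in 5 of the 12 omissions of 1 library (values of -0.166 to -0.114). These were the first RPMI8226 JQ1, the second DMSO library of any line and the second KMS-12 JQ1 library.

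Of 5 further kinases downstream of p38, 2 rose and 3 fell, with a median of -0.17. MKNK1, whose product phosphorylates the cap-binding factor eIF4E, rose in all 3 lines. It had 18.7 ± 0.74 CPM with DMSO and 84.6 ± 7.29 CPM with JQ1 (SD, n = 2) in KMS-11, 43.5 ± 1.28 and 174 ± 8.19 CPM in KMS-12, then 56.2 ± 2.17 and 118 ± 8.77 CPM in RPMI8226. Its average change was 1.75 ± 0.06 (adjusted p = 2.76e-13). Its relative MKNK2 rose by 2.32 ± 0.14 in KMS-12 (adjusted p = 5.95e-10) and was not called in KMS-11 (-0.11) or RPMI8226 (-0.18). The average fell by 0.31 ± 0.09 for RPS6KA4 and by 0.28 ± 0.06 for RPS6KA5, which encode the histone and CREB kinases MSK2 and MSK1. It fell by 0.17 ± 0.06 for MAPKAPK5, named after its value was seen. In RPMI8226 none of them was called (0.06, -0.01 and 0.007 in that order). RPS6KA5 (-0.60) and MAPKAPK5 (-0.46) were called in KMS-12 alone. RPS6KA4 was called in KMS-11 (-0.49) and KMS-12 (-0.50), and some omissions of 1 library ended each of these calls (values of -0.499 to -0.425). The average call of MAPKAPK5 was lost without either KMS-12 JQ1, the second KMS-11 JQ1 or the second KMS-12 DMSO library (values of -0.17 to -0.133).

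Substrates and effectors of the pathway were divided, with 6 higher and 6 lower of 15 (median -0.01), and 4 and 9 with library size alone. ZFP36 encodes tristetraprolin, an mRNA decay factor that MK2 phosphorylates. It rose most in KMS-12, where it had 14.5 ± 1.81 CPM with DMSO and 448 ± 18.9 CPM with JQ1 (SD, n = 2), a log2 fold change of 4.95 ± 0.15. The values for KMS-11 were 53.9 ± 9.70 and 155 ± 15.7 CPM (1.52 ± 0.13), and those for RPMI8226 74.7 ± 6.76 and 42.1 ± 4.86 CPM (-0.82 ± 0.13). The adjusted p was 1.40e-12, 1.17e-07 and 0.000143. The transcription factor genes ATF7 (0.71 ± 0.06), CREB1 (0.65 ± 0.06) and MEF2D (0.54 ± 0.06) rose on average. ATF7 and CREB1 were called in each line. MEF2D rose in KMS-11 (0.68) and KMS-12 (1.10) but was not called in RPMI8226 (-0.145, adjusted p = 0.338), and its response differed between the lines (adjusted p = 2.58e-05). With library size alone the KMS-12 value was 0.11 for ATF7 (adjusted p = 0.343) and -0.10 for CREB1. Of the 6 that were lower, STMN1 and DDIT3 are named after their values were seen. STMN1, a microtubule regulator gene, had an average of -1.10 ± 0.26 (adjusted p = 0.0113), with -2.33 for KMS-11, -2.13 for KMS-12 and an uncalled 1.15 (adjusted p = 0.0936) for RPMI8226. The KMS-11 call was lost without either JQ1 library of that line (0.0618 and 0.0506), and the KMS-12 call without its first JQ1 library (0.0677). DDIT3, the gene of the stress factor CHOP, averaged -0.675 (adjusted p = 0.0103; 0.0601 with the replicate block within line).

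Among 9 phosphatases that act on p38, 4 rose and 1 fell, with a median of 0.39, or 0.40 with the 4 genes that had a group without reads set at their bound. Under library size alone 2 rose and 2 fell. DUSP1, whose product removes both activating phosphates, rose by 1.46 ± 0.21 (adjusted p = 0.000524). Its level in KMS-11 went from 21.2 ± 1.23 to 65.3 ± 31.6 CPM (SD, n = 2), and its calls in single lines were lost in several omissions of 1 library (adjusted p 0.0572 to 0.128). PPM1D rose by 0.64 ± 0.08, PPM1A by 0.40 ± 0.06 and PPM1B by 0.39 ± 0.07 on average, the last 2 no longer called with library size alone (0.05 and 0.04). In KMS-12 PPM1D and PPM1B were at -0.20 and -0.083 under that scaling. The 1 lower on average was DUSP8 (adjusted p = 0.032), which had 0.127 CPM with DMSO and no read with JQ1 in KMS-12 and was not called in RPMI8226 (adjusted p = 0.537). That call was lost with the replicate block (adjusted p = 0.0513) and without either KMS-12 JQ1 or the second KMS-12 DMSO library (0.0827 to 0.277). By line, 4 were higher and 3 lower in KMS-11 and 3 of each in RPMI8226, while KMS-12 had 4 higher and 0 lower. In KMS-12, 4 of the 9 genes had a group without reads. PTPN7, a tyrosine phosphatase gene of blood cells, fell by 2.81 ± 0.16 in KMS-11 (adjusted p = 1.33e-09), from 65.5 to 9.36 CPM. In RPMI8226 it fell by 2.19 ± 0.15 (adjusted p = 2.17e-08), from 121 to 26.5 CPM, and untreated KMS-12 had no read of it. DUSP8 and PTPN7 were named after their values were seen.

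For comparison with other MAP kinase branches, 2 of 9 other MAP kinases rose and 3 fell, with a median of 0.08, also with genes that had a group without reads at their bound. These counts are near the shares of all genes. With library size alone 1 rose and 4 fell. MAPK3, which encodes ERK1, fell by 1.47 ± 0.10 on the log2 scale (adjusted p = 5.53e-09), and its RPMI8226 call was lost without the first DMSO (adjusted p = 0.0832) or second JQ1 library (0.0663) of that line. MAPK6, for the atypical kinase ERK3, fell by 0.58 ± 0.07. MAPK8, for JNK1, rose by 0.96 ± 0.06 (adjusted p = 2.96e-10) and NLK, for Nemo-like kinase, by 0.47 ± 0.06. For NLK, library size alone gave 0.12 on average (adjusted p = 0.136) and -0.35 in KMS-12 (0.00989). MAPK10, for JNK3, was called lower on average (adjusted p = 0.00361) and was named after its values were seen. In KMS-11, where it was highest, it had means of 1.97 CPM with DMSO and 1.7 CPM with JQ1. It was not called there (-0.2, adjusted p = 0.803). With DMSO it had only 0.162 CPM in KMS-12 and 0.17 CPM in RPMI8226, and no read with JQ1 in either. The calls in these lines were lost in some omissions of 1 library, and that of RPMI8226 also with the replicate block (adjusted p = 0.0527). Of 4 other MAP kinase kinases 1 rose and 1 fell, with a median of -0.09, also near the shares of all genes, and 0 rose and 3 fell with library size alone. MAP2K7, an activator of JNK, rose by 0.45 ± 0.07, which became 0.10 (adjusted p = 0.189) with library size alone and -0.26 (0.0392) in KMS-12. MAP2K5 fell by 0.17 ± 0.06, a call lost without any 1 of 3 libraries: the first KMS-12 DMSO (adjusted p = 0.0558), the first RPMI8226 DMSO (0.0587) or the second KMS-12 JQ1 library (0.0669). MAP2K1 (-0.12 ± 0.06, adjusted p = 0.116) and MAP2K2 (-0.06 ± 0.06, adjusted p = 0.508), the activators of ERK, were not called, though both were called lower with library size alone (-0.47 and -0.41).

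**Figure D5:**
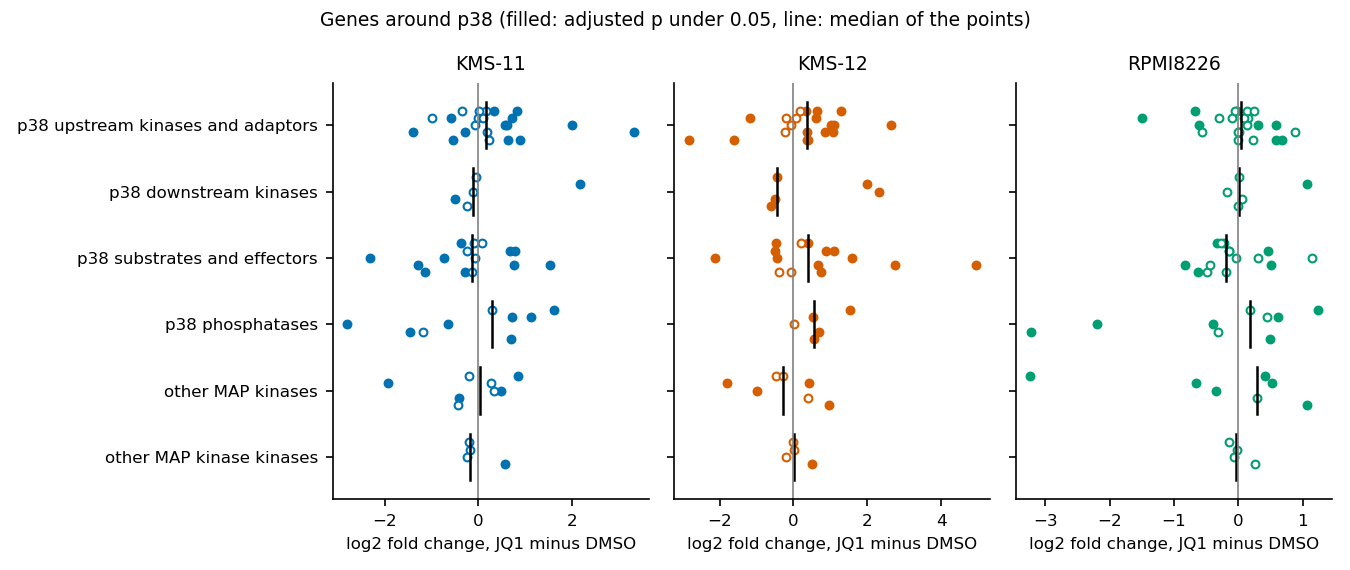
Log2 fold change of JQ1 over DMSO for the genes of 6 lists around p38 in each line, filled where the adjusted p was under 0.05, with a line at the median of the points. Genes with a group without reads are left out, and axes differ between lines; ZFP36 is the point at 4.95 in KMS-12.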

How the data were processed

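The authors deposited raw read counts, whole numbers for 60666 Ensembl gene IDs in 12 libraries. Per the labels' protocols, total RNA was made into stranded libraries after ribosomal RNA removal. Per the submitters' processing notes, DESeq2 and MACS2 were among the tools (roles not given) and the builds were hg38 and GRCh38.p13. Aligner, counter, annotation and strand setting: not given in the sources used here.

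Symbols were paired with 60437 IDs (99.62%), and positions came from GENCODE 29. In R 4.3.3, edgeR 4.0.16 kept 23493 genes (38.7%; filterByExpr, minimum count 10, minimum total 15), scaled them by TMM and fitted a mean for each of the 6 groups with robust quasi-likelihood dispersion. Tests covered JQ1 minus DMSO in each line and on average, differences of these responses, and DMSO levels between lines. Benjamini-Hochberg adjustment ran over all genes tested, with calls at an adjusted p under 0.05. Standard errors were obtained by dividing each log2 fold change by the root of its F. Group bounds set 0 reads at 3. Likeness to MAPK13 used log2 CPM with a prior count of 2.

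The members, the lists, the tests and the naming rule were chosen with earlier results of these data known. The rule names all members, up to 4 genes per list with the smallest adjusted p on average and at least 1 CPM, the 5 genes most like MAPK13, and the 2 nearest protein-coding genes on either side of each pair. Alternatives were RLE scaling, library size alone, library size without MALAT1 (chosen after seeing the data), no filter, genes averaging 10 CPM or more, limma-voom (limma 3.58.1), DESeq2 1.42.0, replicate blocks and leaving out each library in turn, which assumes that a lone library varies as the others do. A gene of the lists is not reported here. The code was tested on simulated data. Replicates of each group differed by more than sampling noise (chi-square per degree of freedom 5.64 to 22.3). Depth limits MAPK11 most, and counting intervals would not cover the spread between libraries.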

Additional observations from a re-analysis of the deposited data

Results flagged for a closer look

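JQ1 responses that differed between the 3 lines, by an F test of any difference in edgeR's quasi-likelihood fit, are listed here with their Benjamini-Hochberg adjusted p over all genes tested. MAP2K6 gave 6.21e-07, with log2 fold changes of 1.10 (KMS-11), -0.76 (that of KMS-12) and 2.11 (that of RPMI8226). MAPKAPK3 gave 4.74e-05, with -1.89, -0.27 and -0.73 in the same order. MAPKAPK2 gave 0.000232, with 0.43, 1.14 and 0.24, and was not called with library size alone (0.411). MAP2K3 gave 0.000684, with 0.52, 0.67 and -0.37. MAPK12 gave 0.000919, with -0.73, -1.79 and -0.86. The response of MAPK13 was not tested for a difference, since the gene was chosen on that response.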

How the results depend on the processing

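Of the member tests under the alternatives, 1366 kept direction and side of the threshold, 37 lost the call, 8 gained it and 6 changed sign. With library size alone, signs changed for MAPK14 (-0.002 in KMS-11, -0.48 in KMS-12, -0.10 on average), MAP2K3 (-0.10 in KMS-12, -0.083 on average), SRPK1 (-0.39 and -0.080), BRPF3 (-0.090 and -0.21) and PLXNB2 (-0.094 and -0.085). In KMS-12 they also changed for CREB1 (-0.10), PPM1B (-0.083), PPM1D (-0.20), NLK (-0.35), MAP2K7 (-0.26) and TUBGCP6 (-0.10). With library size without MALAT1 they changed in KMS-12 for MAPK14 (-0.18), NLK (-0.052) and SRPK1 (-0.087), and on average for BRPF3 (-0.034). These settings move all genes together, as the shift of the median shows.

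With library size alone, members called higher numbered 1 in KMS-11, 1 in KMS-12 and 2 on average, and members called lower 5 in KMS-12. All genes called higher then numbered 2231 in KMS-11, 1035 in KMS-12 and 2116 on average, lower 12780 in KMS-12 and 10351 on average, and 11281 differed in response. With library size without MALAT1, 1 member was higher in KMS-12 and 2 on average, and of all genes 1994 were higher and 9968 lower in KMS-12 and 3470 higher on average. A mean of at least 10 CPM left fewer genes to test, without MAPK11: 3081, 3415, 2564 and 3697 were lower in KMS-11, KMS-12, RPMI8226 and on average, and 9188 differed in DMSO. Leaving out 1 library, members called higher ranged from 2 to 4 in KMS-11 and 1 to 2 in RPMI8226, and all genes called higher in RPMI8226 from 1998 to 3763.

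Same-numbered libraries of a line deviated together with r = 0.15 for KMS-11, 0.03 for KMS-12 and 0.18 for RPMI8226. Pairs from different lines gave -0.05 to 0.10. Whether same-numbered libraries of a line were handled together is not given in the sources used here. With a replicate block, 4 members were called higher and 3 lower on average, as without it, and no member call changed. With the block within line no member call on JQ1 changed either. All genes called then went from 9040 to 9637 in KMS-11 and from 7574 to 8421 in RPMI8226. With 2 libraries per group, changes of the size of MAPK14 sit near the limit of detection.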
